A study of Mus musculus with 12 samples.

Results

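The nuclear genes of the mitochondrial respiratory chain and of the ATP synthase were followed in the liver of mice in which Grb14, an adapter protein that binds and inhibits the activated insulin receptor, was knocked down. Members were taken by a rule on gene names, chosen with earlier results of these data known. The rule takes every gene symbol that starts with Nduf, Uqcr, Atp5 or Cox followed by a digit of 4 to 8, together with Sdha, Sdhb, Sdhc, Sdhd, Cyc1 and Cycs. This gave 91 of the 19938 genes measured. By complex, 41 belonged to complex I, 4 to complex II, 9 to complex III, 19 to complex IV and 17 to complex V, and cytochrome c was 1 gene. Their names also took in 7 assembly factors of complex I, the Ndufaf genes, which are not subunits. Ndufa4 and Ndufa4l2, named for complex I, were counted with complex IV, to which the Ndufa4 protein is now assigned.

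All 12 mice were of the C57Bl/6J strain. They were 10 weeks old when 6 of them were injected intravenously with an adenovirus whose short hairpin RNA targets Grb14 (sh Grb14). The other 6 were injected in the same way with an adenovirus whose hairpin is scrambled (sh scramble), so both groups carried virus. The livers were taken in the fed state 7 days later, and each liver gave 1 array. The promoter that drives the hairpins was not given in the sources used here, and livers without virus were not analysed here. An intravenous adenovirus reaches chiefly hepatocytes, whereas the RNA came from whole liver.

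The respiratory chain lies in the inner mitochondrial membrane. Complex I (NADH dehydrogenase) and complex II (succinate dehydrogenase) pass electrons to coenzyme Q, complex III passes them on to cytochrome c, and complex IV (cytochrome c oxidase) passes them to oxygen. Complexes I, III and IV pump protons, and complex V, the ATP synthase, uses their return to make ATP. In the liver this supply of energy serves glucose production, urea synthesis and the handling of fat. All but a few subunits are encoded in the nucleus, and many of their promoters are known to be bound by NRF1 (the product of Nrf1), GABPA and YY1, with the coactivator PGC-1alpha (Ppargc1a) and the receptor ERR-alpha (Esrra) acting on the same genes.

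Letters that NRF1, YY1, ERR-alpha and GABPA recognise were therefore searched on both strands of the RefSeq promoter windows of GRCm38.p6. Each window had 300 bases, from 250 before to 50 after a transcript start. A window was found for 74 members, with 79 windows in all. The NRF1 half-site GCATGCGC stood in 16.5% of the members' windows, against 3.51% of all 21262 windows of protein-coding genes. The YY1 letters AAGATGGC stood in 12.7% of the members' windows against 3.05%, the ERR letters AAGGTCA in 8.86% against 4.08%, and the ETS letters CCGGAAGT, which GABPA recognises, in 6.33% against 5.15%. At least 1 of these 4 motifs stood in 40.5% of the members' windows, against 14.7% of the protein-coding windows. These are matches of letters and show no binding, and none of the motifs contains another.

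Of the 13 members with the NRF1 half-site, 10 fell in sh Grb14 livers, 1 rose and 2 did not pass the test. The 150 bases upstream of the start are printed below for 4 that fell and for the 3 that did not, since they let promoters with the same letters and different changes be set side by side. Sequences are from RefSeq, 5′ to 3′ on the strand of the gene, and capitals mark the half-site. The 10 capitals of GCGCATGCGC are a palindrome that holds the half-site on both strands. The 4 that fell were Ndufaf4 (chr4:24897933-24898082, plus strand), Ndufa6 (chr15:82354292-82354441, minus strand), Sdhb (chr4:140961121-140961270, plus strand) and Atp5k (chr5:108434400-108434549, minus strand).
Ndufaf4: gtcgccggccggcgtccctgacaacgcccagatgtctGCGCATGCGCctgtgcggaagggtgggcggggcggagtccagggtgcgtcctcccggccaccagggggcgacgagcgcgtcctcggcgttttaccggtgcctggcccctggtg
Ndufa6: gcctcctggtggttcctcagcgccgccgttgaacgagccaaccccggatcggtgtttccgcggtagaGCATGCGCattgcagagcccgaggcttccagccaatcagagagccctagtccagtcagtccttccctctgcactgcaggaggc
Sdhb: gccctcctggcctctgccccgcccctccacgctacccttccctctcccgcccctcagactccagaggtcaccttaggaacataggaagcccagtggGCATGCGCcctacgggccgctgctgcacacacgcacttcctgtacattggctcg
Atp5k: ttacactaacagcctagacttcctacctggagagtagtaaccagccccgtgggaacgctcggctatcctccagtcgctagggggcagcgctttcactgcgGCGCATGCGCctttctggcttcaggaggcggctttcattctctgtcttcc
The 3 that did not fall were Ndufa8 (chr2:36049339-36049488, minus strand), Cycs (chr6:50566570-50566719, minus strand) and Atp5g2 (chr15:102671048-102671197, minus strand).
Ndufa8: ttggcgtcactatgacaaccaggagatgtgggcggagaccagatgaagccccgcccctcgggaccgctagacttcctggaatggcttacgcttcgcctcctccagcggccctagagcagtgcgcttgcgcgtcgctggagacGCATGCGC
Cycs: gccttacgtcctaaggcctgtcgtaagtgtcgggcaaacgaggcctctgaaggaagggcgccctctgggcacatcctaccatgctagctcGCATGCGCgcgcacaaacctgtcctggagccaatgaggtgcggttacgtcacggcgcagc
Atp5g2: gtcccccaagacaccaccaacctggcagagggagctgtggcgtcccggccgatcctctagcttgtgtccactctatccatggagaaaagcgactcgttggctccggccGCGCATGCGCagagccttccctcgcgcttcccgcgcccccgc
The palindrome stood both in Ndufaf4, the largest fall of all members, and in Atp5g2, whose change was close to 0. The window of Ndufaf4 also held a further half-site past the start, outside the bases printed, and that of Atp5g2 did not. The median change of the 13 members with the half-site was −0.33, against −0.42 for the 61 members whose windows lacked it. For the other motifs the medians with and without were −0.55 and −0.40 (ERR, 7 members with it), −0.43 and −0.41 (YY1, 10 members) and −0.40 and −0.42 (ETS, 5 members). These differences were not tested and had no common direction.

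Values throughout are the deposited log2 levels of a probe set, a group of array probes summarised to 1 value. A change is the difference of group means, sh Grb14 minus sh scramble, with its standard error (SE). A gene passed the test when its limma p, adjusted by Benjamini-Hochberg over all 19938 genes, was under 0.05. Levels of different probe sets depend on their probes, so they are not read as relative amounts of RNA and serve only to sort probe sets by range of signal. The array medians lay between 7.06 and 7.17. Grb14 itself lay between 8.02 and 8.44 in sh Grb14 livers, against 10.08 to 10.25 in sh scramble livers, a change of −1.91 (SE 0.059; exact permutation p = 0.00216, the smallest that 6 against 6 mice can give), which left 26.7% of the sh scramble level.

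Markers of the labelled tissue were present in every liver, with a mean level over 10 hepatocyte markers of 12.86 to 13.09 in sh Grb14 livers, against 13.40 to 13.46 in sh scramble livers. Of these 10 markers, 0 rose, 9 fell and 1 did not pass. Their median change was −0.26 and their mean shift −0.42. All 8 measured markers of recruited macrophages rose, with a mean level of 9.51 to 9.90 in sh Grb14 livers, against 7.46 to 7.73 in sh scramble livers. Of 7 T cell markers 6 rose and 1 fell (mean level 8.49 to 8.80 against 7.10 to 7.21), and all 5 measured cell cycle genes rose (9.82 to 10.21 against 7.14 to 7.44). Of 8 markers of stellate cells and fibroblasts 5 rose and 2 fell (9.99 to 10.41 against 9.36 to 9.74). Of 7 neutrophil markers 6 rose and 0 fell (7.40 to 7.79 against 6.18 to 6.32), and of 8 Kupffer cell markers 4 rose and 0 fell. Endothelial markers were split, with 4 of 7 higher and 3 lower, and of 4 cholangiocyte markers 1 rose and 0 fell. Over all genes, 25.8% rose and 39.5% fell. The part of these markers in the changes below was not tested, and in whole liver RNA fewer cells of a type and less RNA per cell cannot be told apart.

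Array sh scramble 6 stood apart in muscle genes, among them Ckm, the creatine kinase of muscle, at 10.06, against 6.92 to 7.30 in sh Grb14 livers and 7.20 to 7.58 in the other sh scramble livers. Array sh scramble 4 stood apart in adipocyte genes, among them Adipoq, the fat hormone adiponectin, at 7.25, against 5.24 to 5.59 in sh Grb14 livers and 5.60 to 5.93 in the other sh scramble livers. The calls of named genes that end without 1 or both of these arrays are given below, an alternative chosen after these values were seen.

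Respiratory chain and ATP synthase genes were lower in sh Grb14 livers almost throughout. Of the 91 members, 2 rose, 81 fell and 8 did not pass the test. The background was wide: 65.3% of all genes passed the same test, made up of 25.8% that were higher with sh Grb14 and 39.5% that were lower. In 76 members every sh Grb14 liver lay below every sh scramble liver, and in 1 every sh Grb14 liver lay above, whereas 20.8% of all genes had separate groups with sh Grb14 lower. The falls were small in size: the median change of the members was −0.39 (1.31-fold lower), against −0.10 for all genes, and 30 members (33.0%) had a change below −0.5, against 1853 of all genes (9.29%). Without arrays sh scramble 4 and 6, 2 members rose and 80 fell, with a median of −0.38.

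Centring each array on the median of all genes moved the median of all genes to −0.25, with 3859 genes higher and 12943 lower, and centring on the median of the genes above the median level moved it to −0.19, with 4344 higher and 10596 lower (5144 higher and 7868 lower as deposited). Under these scalings 89 and 85 members fell, and 1 and 2 rose. The first of these scalings lowers the change of every gene by the same 0.15 and the second by 0.085. Changes of 16 members that passed as deposited moved by over 1.5 times under the first, namely falls smaller than 0.29 and the rise of Ndufa8, and those of 4 under the second. All 8 members that had not passed then passed as falls under the first, and 4 of them under the second. Small changes, and the line between members that passed and members that did not, therefore depend on the scaling.

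**Figure D1:**
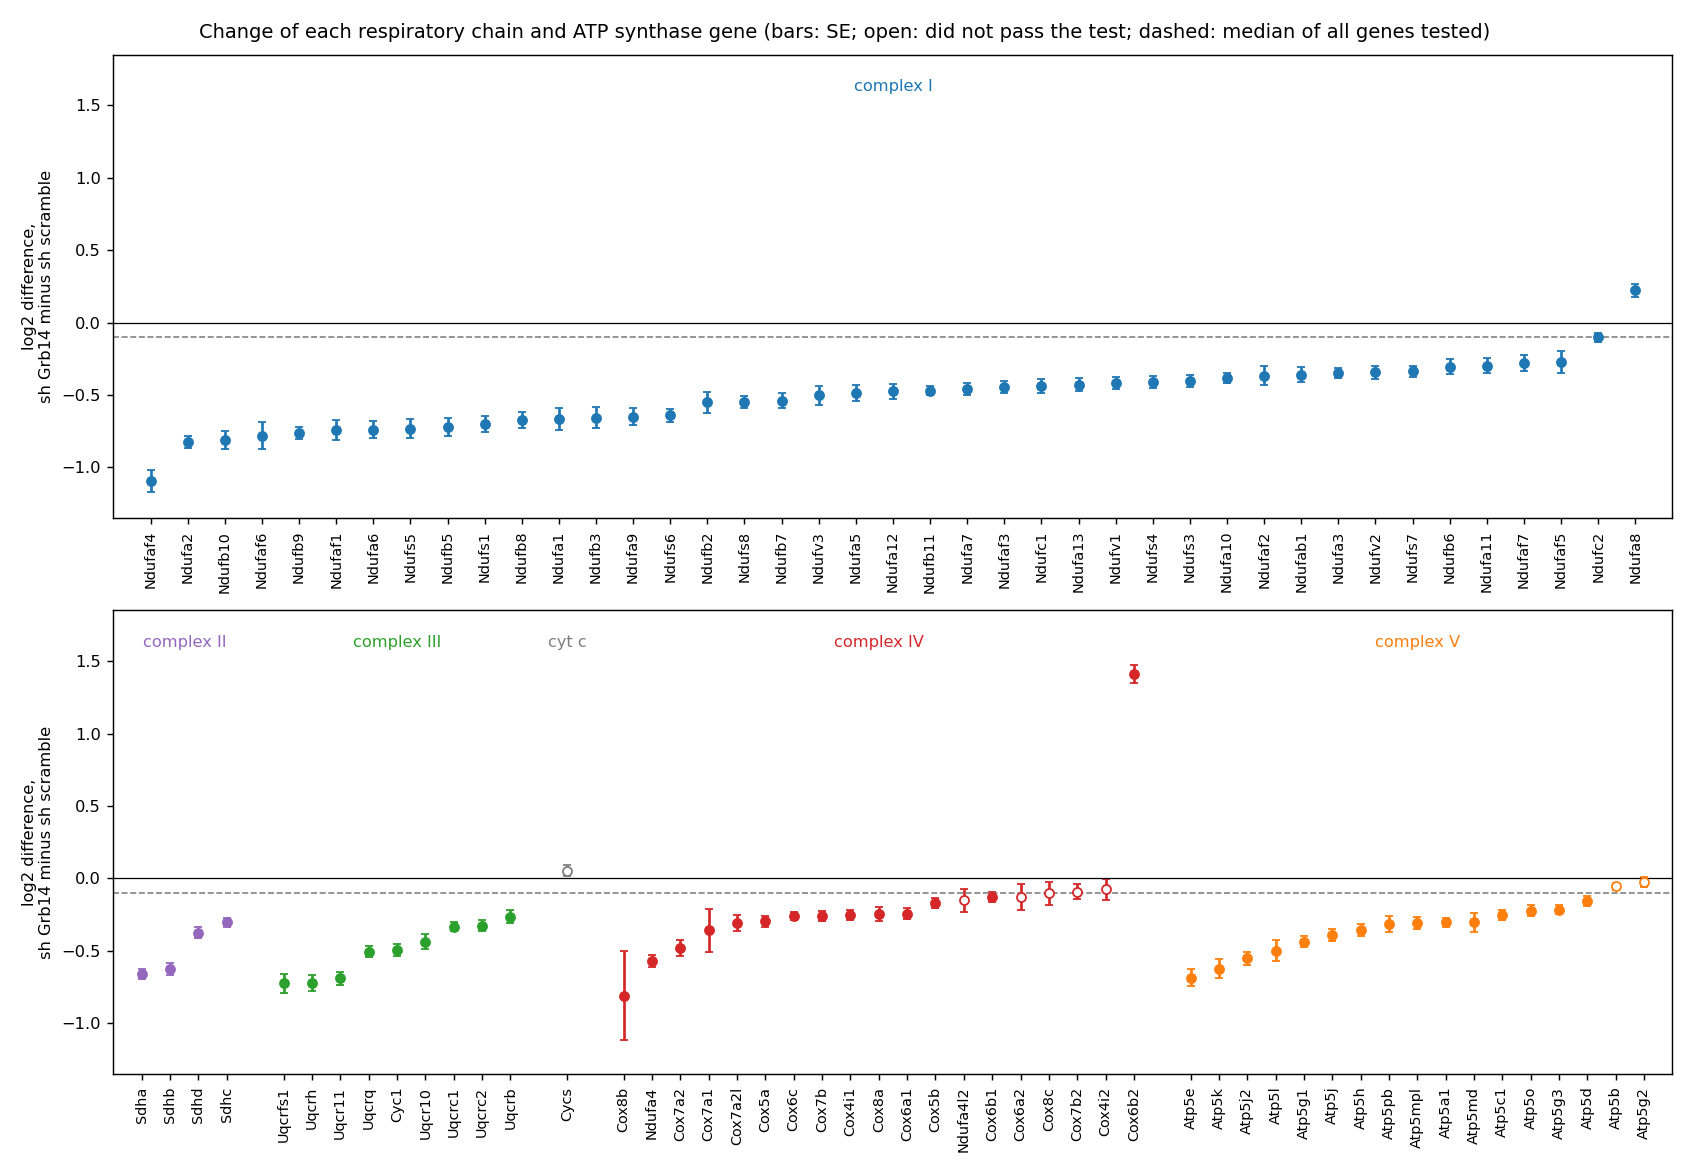
Change of each of the 91 members, as log2 difference of sh Grb14 minus sh scramble (y axis), with members along the x axis grouped and coloured by complex. Points are differences of means over 6 livers each, bars are SE, open points did not pass the test and the dashed line is the median of all genes (−0.10). Nearly all points lie below 0, and Cox6b2 stands at 1.41.

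**Figure D2:**
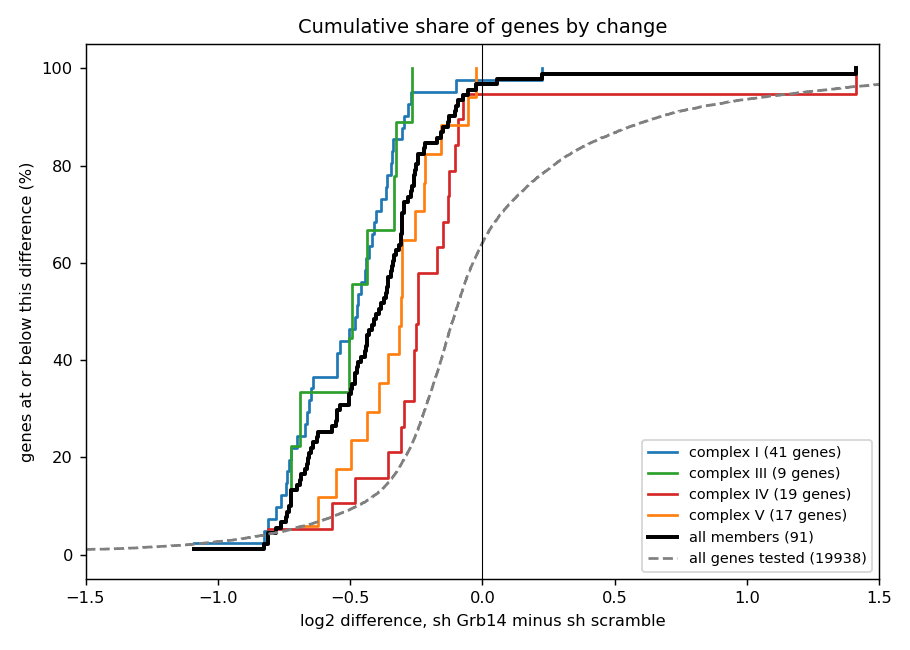
Share of genes (y axis, percent) with a change at or below the value on the x axis (log2, sh Grb14 minus sh scramble), for all members, for the members of complexes I, III, IV and V, and for all genes tested (dashed). The members' curve reaches its median at −0.39, against −0.10 for all genes, and the curves of complexes IV and V lie between those of complex I and of all genes over most of their course.

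The median change is given by complex, and differences between complexes were not tested. Complex I had 40 of 41 members lower and 1 higher, with a median change of −0.47. Complex II had all 4 members lower (median −0.50), and complex III all 9 (median −0.49). Complex IV had 13 of 19 lower, 1 higher and 5 not past the test (median −0.25), and complex V 15 of 17 lower and 2 not past the test (median −0.31). Complex IV, with arrays centred on the median of all genes, had 18 lower and 1 higher (median −0.39) and complex V all 17 lower (median −0.45). Centred on the brighter genes, complex IV had 15 lower (median −0.33) and complex V 17. Under either centring, and without arrays sh scramble 4 and 6, every complex kept a median below 0.

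In complex I the fall covered the subunits that carry electrons, the accessory subunits around them and the assembly factors. All 6 measured core subunits fell, with a median of −0.41. Of 28 accessory (supernumerary) subunits 27 fell and 1 rose (median −0.49), and all 7 assembly factors fell (median −0.44). Among the core subunits, Ndufs1, the largest iron-sulfur subunit of the matrix arm, had levels of 10.10, 10.26 and 10.36 in sh Grb14 livers, against 10.79, 10.94 and 11.07 in sh scramble livers (lowest, median and highest of 6, as in the sentences that follow). The groups of Ndufs1 did not overlap, and it fell by 0.70 (SE 0.053; limma adjusted p = 5.03e-09). Ndufv1, which binds NADH and the flavin that takes its electrons, fell by 0.42. The further iron-sulfur and core subunits Ndufv2, Ndufs3, Ndufs7 and Ndufs8 fell too, with changes of −0.34, −0.40, −0.34 and −0.55.

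Ndufaf4, an assembly factor that acts in early stages of complex I building, had levels of 7.86, 8.23 and 8.27 in sh Grb14 livers, against 9.12, 9.23 and 9.27 in sh scramble livers. Every sh Grb14 liver was lower, and the change of −1.09 (SE 0.077; limma adjusted p = 1.85e-09) made it 2.13-fold lower, the largest fall among the members. Ndufa2, an accessory subunit of the matrix arm, had 9.86, 9.88 and 10.02 in sh Grb14 livers, against 10.66, 10.76 and 10.81 in sh scramble livers. Its groups lay far apart relative to their spread, and it fell by 0.82 (SE 0.044; limma adjusted p = 5.12e-11). Ndufb10, an accessory subunit of the membrane arm, had 7.80, 7.88 and 8.05 in sh Grb14 livers, against 8.55, 8.72 and 8.86 in sh scramble livers, also with no overlap. It fell by 0.81 (SE 0.062; limma adjusted p = 4.93e-09). The other assembly factors fell with changes of −0.78 (Ndufaf6), −0.74 (Ndufaf1), −0.44 (Ndufaf3), −0.37 (Ndufaf2), −0.28 (Ndufaf7) and −0.27 (Ndufaf5). In Ndufaf5 and in the accessory subunit Ndufc2, which fell by 0.10, the groups overlapped.

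Ndufa8, a cysteine-rich accessory subunit on the side of the intermembrane space, went the other way. Its levels were 10.71, 10.77 and 10.81 in sh Grb14 livers, against 10.46, 10.50 and 10.71 in sh scramble livers, and 1 sh scramble liver, sh scramble 6, reached the lowest sh Grb14 liver. It rose by 0.22 (SE 0.045; limma adjusted p = 0.00041), although with arrays centred on the median of all genes the change was 0.077 and did not pass (limma adjusted p = 0.108). Ndufb7 and Ndufs5, which carry the same kind of cysteine-rich fold, fell, with changes of −0.54 and −0.73.

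The remaining accessory subunits fell, with changes between −0.76 (Ndufb9) and −0.30 (Ndufa11). Ndufab1, the acyl carrier protein of mitochondria that also sits in complex I, fell by 0.36. Ndufs4, a subunit whose loss causes complex I deficiency, fell by 0.41, and Ndufs6 fell by 0.64. Ndufb4 had no probe set of its own: 2 probe sets shared with its copy Ndufb4b had changes of −0.48 and −0.44, given here with no test.

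All 4 subunits of complex II, which is also the succinate dehydrogenase of the citric acid cycle, fell without overlap of the groups. Sdha, the flavoprotein that oxidises succinate, had 11.47, 11.53 and 11.61 in sh Grb14 livers, against 12.14, 12.20 and 12.25 in sh scramble livers. It fell by 0.66 (SE 0.034; limma adjusted p = 4.25e-11). Sdhb, the iron-sulfur subunit whose promoter is printed above, had 10.77, 10.90 and 10.99 in sh Grb14 livers, against 11.46, 11.51 and 11.60 in sh scramble livers, and it fell by 0.63 (SE 0.042; limma adjusted p = 1.02e-09). These catalytic subunits had the larger falls in the complex. The membrane anchors followed: Sdhd lay at 11.09 to 11.23 in sh Grb14 livers, against 11.47 to 11.62 in sh scramble livers and fell by 0.37 (SE 0.040; limma adjusted p = 3.34e-07), and Sdhc lay at 11.53 to 11.65 in sh Grb14 livers, against 11.85 to 11.95 in sh scramble livers and fell by 0.30 (SE 0.032; limma adjusted p = 2.8e-07).

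All 9 members of complex III fell, each with separate groups. Uqcrfs1, the Rieske iron-sulfur protein that takes electrons from coenzyme Q, had 9.28, 9.63 and 9.70 in sh Grb14 livers, against 10.22, 10.27 and 10.31 in sh scramble livers. Its fall was 0.72 (SE 0.066; limma adjusted p = 5.39e-08). Uqcrh, the hinge protein beside cytochrome c1, had 10.28, 10.52 and 10.73 in sh Grb14 livers, against 11.17, 11.24 and 11.28 in sh scramble livers, and fell by 0.72 (SE 0.058; limma adjusted p = 8.94e-09). Both were thus 1.65-fold lower. Uqcr11, a small accessory subunit, had 10.51, 10.62 and 10.79 in sh Grb14 livers, against 11.21, 11.34 and 11.38 in sh scramble livers, and fell by 0.69 (SE 0.046; limma adjusted p = 9.92e-10). Cyc1, cytochrome c1 itself, had 11.41, 11.52 and 11.61 in sh Grb14 livers, against 11.92, 11.99 and 12.11 in sh scramble livers, and fell by 0.49 (SE 0.042; limma adjusted p = 2.02e-08). The core proteins Uqcrc1 and Uqcrc2, which do not carry electrons, had changes of −0.33 and −0.32, and the accessory subunits Uqcrq, Uqcr10 and Uqcrb had changes of −0.51, −0.44 and −0.27.

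Cycs, the somatic cytochrome c that carries electrons from complex III to complex IV and triggers apoptosis when it leaves the mitochondrion, did not pass the test. It had 12.49, 12.57 and 12.70 in sh Grb14 livers, against 12.48, 12.51 and 12.58 in sh scramble livers, with overlapping groups and a change of 0.05 (SE 0.037; limma adjusted p = 0.206). With arrays centred on the median of all genes it turned to −0.093 and passed (limma adjusted p = 0.0412), so its direction was not settled.

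**Figure D3:**
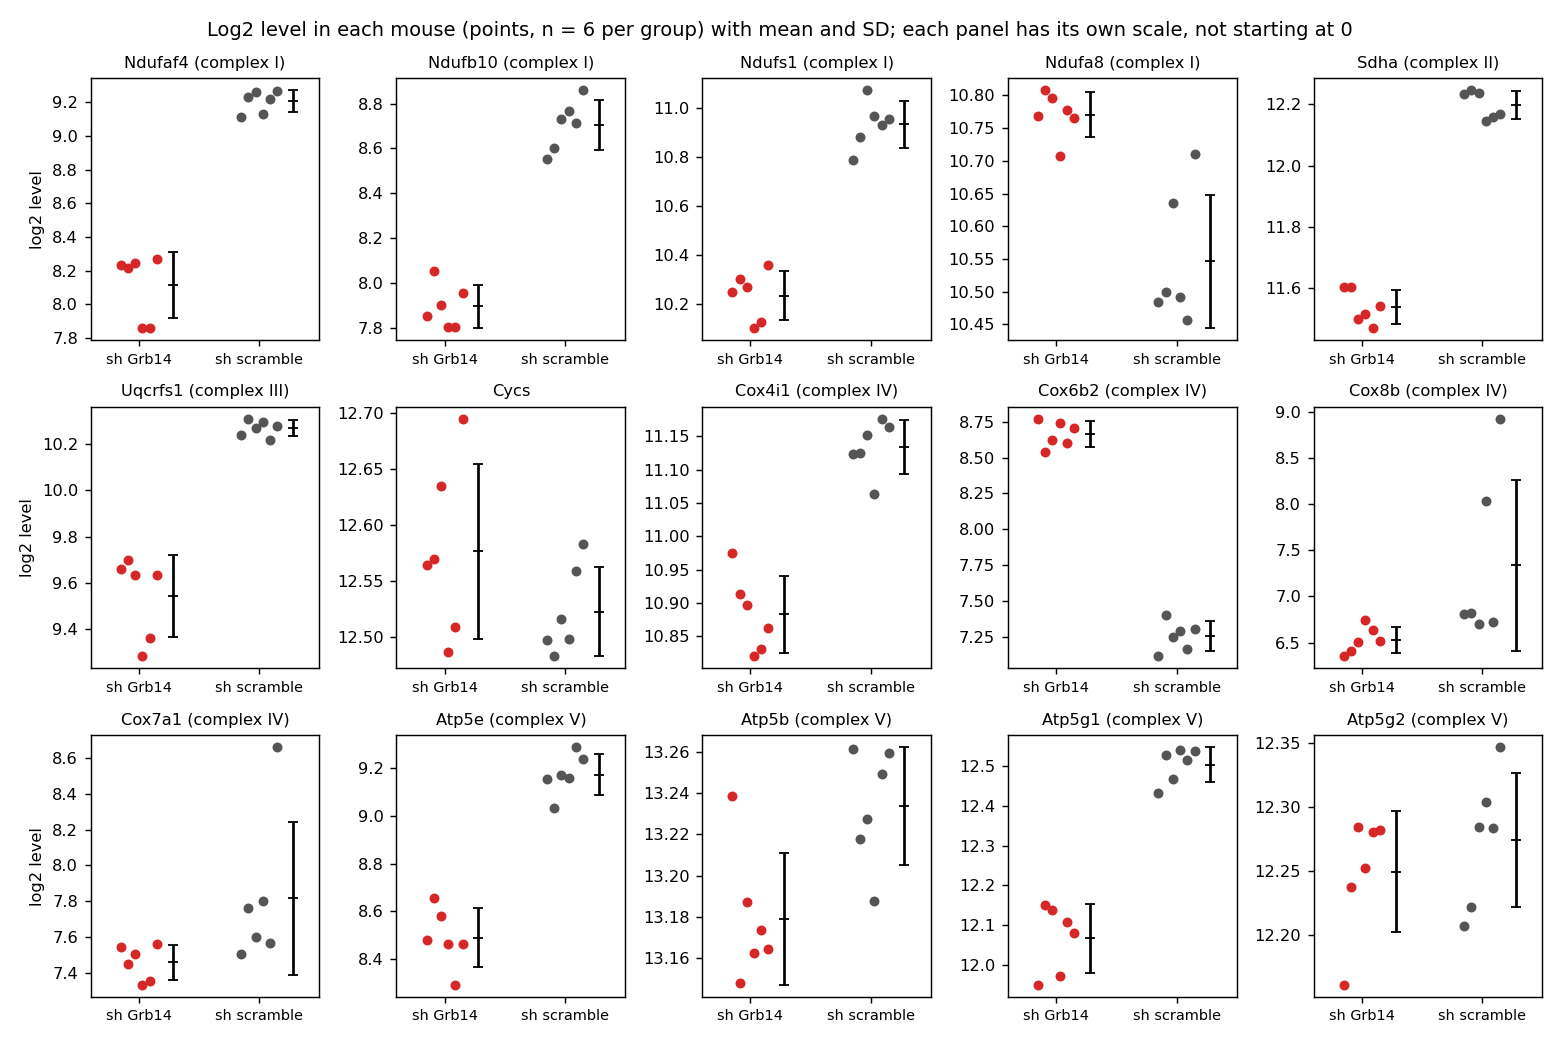
Deposited log2 level (y axis) of selected members in each of the 12 livers, with sh Grb14 left of sh scramble in every panel. Each point is 1 liver, bars are mean and SD over 6 livers, and each panel has its own scale that does not start at 0. Groups overlap in Ndufa8, Cycs, Cox8b, Cox7a1, Atp5b and Atp5g2 and are separate in the other panels, and in Cox8b the array sh scramble 6 stands at 8.93.

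In complex IV, the subunits that most tissues express fell, whereas the calls of the isoforms known from single tissues depended on the scaling. All 10 ubiquitous subunits fell (median −0.25), each with separate groups. Of the 8 tissue isoforms, 1 rose, 2 fell and 5 did not pass as deposited (median −0.11). With arrays centred on the median of all genes, 1 isoform rose and the other 7 fell (median −0.26, against −0.40 for the ubiquitous subunits), and centred on the brighter genes 1 rose and 4 fell (median −0.20). These isoforms had levels of 4.76 to 8.93, in a range where 37.9% of all genes below a mean level of 8 fell with a median of −0.12, and no detection call was made. Ndufa4, the ubiquitous subunit with the largest fall, had 10.69, 10.83 and 10.91 in sh Grb14 livers, against 11.34, 11.37 and 11.45 in sh scramble livers. It fell by 0.57 (SE 0.041; limma adjusted p = 2.34e-09) with no overlap. Its relative Ndufa4l2 lay at 6.63 to 6.95 in sh Grb14 livers, against 6.66 to 7.08 in sh scramble livers, overlapping, with a change of −0.15 (SE 0.080; limma adjusted p = 0.11) that did not pass. Ndufa4l2 did pass, lower in sh Grb14 livers, with arrays centred on the median of all genes (−0.30; limma adjusted p = 0.00198) or of the brighter genes (−0.24; limma adjusted p = 0.0325), and without sh scramble 3 (−0.20; limma adjusted p = 0.0275).

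Cox6b2, the testis isoform of subunit 6b, was the 1 complex IV gene that rose. It had 8.54, 8.66 and 8.77 in sh Grb14 livers, against 7.11, 7.27 and 7.40 in sh scramble livers, so all sh Grb14 livers lay far above all sh scramble livers. It rose by 1.41 (SE 0.060; limma adjusted p = 3.62e-12), 2.66-fold higher. Its ubiquitous counterpart Cox6b1 lay at 11.85 to 11.90 in sh Grb14 livers, against 11.92 to 12.12 in sh scramble livers and fell by 0.13 (SE 0.035; limma adjusted p = 0.00408). Of 6 markers of testis germ cells 0 rose and 2 fell, and their mean level was 5.95 to 6.23 in sh Grb14 livers, against 6.11 to 6.28 in sh scramble livers. These levels lay near the lower quartile of the arrays (5.69 to 5.83) and had no detection call, so a rise of these markers could have been missed. The other testis isoforms, Cox7b2 and Cox8c, had changes of −0.09 and −0.10 that did not pass (limma adjusted p = 0.125 and 0.243). Both passed as falls with arrays centred on the median of all genes (Cox7b2 −0.24, Cox8c −0.25; limma adjusted p = 0.000298 and 0.0058). Cox7b2 passed also when centred on the brighter genes (−0.18; limma adjusted p = 0.0248) and without sh Grb14 5 (−0.12; limma adjusted p = 0.037).

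The muscle isoforms Cox8b and Cox7a1 were highest in sh scramble 6, and their calls depended on which arrays were kept, not only on the 2 that stood apart. Cox8b also did not pass without sh Grb14 1 or without sh Grb14 2. Cox7a1 did not pass when any single sh Grb14 mouse, sh scramble 2 or sh scramble 4 was left out. Cox8b, an isoform of heart, skeletal muscle and brown fat, lay at 6.35 to 6.74 in sh Grb14 livers, against 6.71 to 8.93 in sh scramble livers, and it was high in sh scramble 6 (8.93) and sh scramble 4 (8.04) but between 6.71 and 6.82 in the other 4 sh scramble livers. It fell by 0.81 (SE 0.31; limma adjusted p = 0.0304) with all arrays, and by 0.24 without both (limma adjusted p = 0.0203). Without sh scramble 4 alone the change was −0.67 and did not pass (limma adjusted p = 0.0703), and without sh scramble 6 alone it was −0.49 (limma adjusted p = 0.0363). Cox7a1, the heart and muscle isoform of subunit 7a, was highest in sh scramble 6 (8.66) and lay between 7.50 and 7.80 in the other sh scramble livers, against 7.33 to 7.56 in sh Grb14 livers. Its change of −0.36 (SE 0.15; limma adjusted p = 0.0448) was −0.15 without both arrays and no longer passed (limma adjusted p = 0.0893). Cox6a2, also of heart and muscle, had a change of −0.13 (SE 0.089; limma adjusted p = 0.224) that did not pass, or −0.27 and past the test with arrays centred on the median of all genes (limma adjusted p = 0.00723).

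Their ubiquitous counterparts fell in every pair. Cox7a2 had 10.40, 10.68 and 10.74 in sh Grb14 livers, against 10.99, 11.14 and 11.20 in sh scramble livers, with separate groups, and fell by 0.48 (SE 0.057; limma adjusted p = 1.19e-06). Cox7a2l, a relative of Cox7a2 listed here as a supercomplex factor, lay at 8.36 to 8.55 in sh Grb14 livers, against 8.62 to 8.91 in sh scramble livers. Cox7a2l fell by 0.31 (SE 0.057; limma adjusted p = 0.000178). Whether its protein joins complexes III and IV in the mouse strain used here was not tested. Cox8a lay at 11.77 to 12.09 in sh Grb14 livers, against 12.19 to 12.31 in sh scramble livers and fell by 0.25, and Cox6a1 lay at 11.90 to 12.08 in sh Grb14 livers, against 12.17 to 12.29 in sh scramble livers and fell by 0.24. Of the regulatory subunit 4, the common isoform Cox4i1 lay at 10.82 to 10.97 in sh Grb14 livers, against 11.06 to 11.18 in sh scramble livers and fell by 0.25 (SE 0.036; limma adjusted p = 1.22e-05). The lung isoform Cox4i2 overlapped between the groups, with a change of −0.07 (SE 0.073; limma adjusted p = 0.374) that did not pass, or −0.22 and past the test with arrays centred on the median of all genes (limma adjusted p = 0.01). Cox5a, Cox5b, Cox6c and Cox7b fell, with changes of −0.30, −0.17, −0.26 and −0.26. Cox7c was measured only by 3 probe sets shared with a copy, each with a change of −0.24, given here with no test.

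In complex V, the 3 members with the largest falls were small subunits. Atp5e, the epsilon subunit at the foot of the rotor stalk, had 8.29, 8.47 and 8.66 in sh Grb14 livers, against 9.03, 9.16 and 9.29 in sh scramble livers. It fell by 0.68 (SE 0.061; limma adjusted p = 3.73e-08), 1.61-fold lower, with no overlap. Atp5k, the membrane subunit e whose promoter is printed above, had 8.33, 8.51 and 8.74 in sh Grb14 livers, against 8.99, 9.11 and 9.32 in sh scramble livers, and fell by 0.62 (SE 0.068; limma adjusted p = 4.78e-07). Atp5j2, the membrane subunit f, lay at 11.37 to 11.59 in sh Grb14 livers, against 11.92 to 12.15 in sh scramble livers, and fell by 0.55 (SE 0.045; limma adjusted p = 1.28e-08). These groups were all separate. Atp5b, the catalytic beta subunit, had 13.15, 13.17 and 13.24 in sh Grb14 livers, against 13.19, 13.24 and 13.26 in sh scramble livers, and its change of −0.05 (SE 0.026; limma adjusted p = 0.0769) did not pass. It passed with arrays centred on the median of all genes (−0.20) or on that of the brighter genes (−0.14), without sh Grb14 1 (−0.067), or with dim genes left out of the fit (−0.055; limma adjusted p = 0.0495).

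Atp5a1 (alpha) of the catalytic head, and Atp5c1 (gamma) and Atp5d (delta) of the rotor stalk, fell, with changes of −0.30, −0.25 and −0.16. All 4 subunits of the peripheral stalk, which holds the head still while the rotor turns, fell, with a median of −0.34. Their changes were −0.39 for Atp5j, −0.36 for Atp5h, −0.32 for Atp5pb and −0.22 for Atp5o. The 5 small membrane subunits fell with a median of −0.50, including Atp5l, the subunit g (−0.50), Atp5mpl (−0.31) and Atp5md (−0.30). In Atp5md the groups overlapped, with 11.74 to 12.23 in sh Grb14 livers, against 12.21 to 12.39 in sh scramble livers.

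The c ring of the rotor is made by 3 genes that encode the same mature protein with different import sequences, and 2 of them fell. Atp5g1 had 11.95, 12.09 and 12.15 in sh Grb14 livers, against 12.43, 12.52 and 12.54 in sh scramble livers, and fell by 0.44 (SE 0.039; limma adjusted p = 4.56e-08). Atp5g3 had 12.29, 12.35 and 12.38 in sh Grb14 livers, against 12.47, 12.56 and 12.63 in sh scramble livers, and fell by 0.22 (SE 0.031; limma adjusted p = 1.44e-05). Atp5g2 had 12.16, 12.27 and 12.28 in sh Grb14 livers, against 12.21, 12.28 and 12.35 in sh scramble livers, with overlapping groups and a change of −0.02 (SE 0.033; limma adjusted p = 0.516) that did not pass. Its change was −0.17 with arrays centred on the median of all genes and −0.11 on that of the brighter genes, both past the test, and 0.00051 without arrays sh scramble 4 and 6. The differences between the 3 genes were not tested.

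Other probe sets of the same genes were lower too. In 18 members several probe sets were available, and all 27 that had not been used had a negative change, between −0.74 and −0.0061 with a median of −0.36. For Atp5g2 the other 2 probe sets had changes of −0.030 and −0.041, and for Cycs −0.0061 and −0.20. The Cycs probe set with −0.20 was dim and its groups overlapped, at 6.18 to 6.73 in sh Grb14 livers, against 6.44 to 6.95 in sh scramble livers. Several of these genes have processed copies elsewhere in the genome, and the signal of a gene and of a near-identical copy cannot be told apart here.

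Members were also set beside all genes of the same range of signal, and differences between ranges were not tested. Members with a mean level of 8 to 10 all fell (18 of 18, median −0.63), whereas 37.3% of all genes in that range fell, with a median of 0.0098. Between 10 and 11, 18 of 19 members fell (median −0.48, all genes −0.09), and between 11 and 12 all 25 fell (median −0.38, all genes −0.12). Above 12, 14 of 17 fell (median −0.25, all genes −0.15). Below 8, where all 8 tissue isoforms lie, 6 of 12 fell (median −0.21, all genes −0.12). In each range the members' median lay below that of all genes. Changes near the top of the scale can be understated by compression, which was not tested.

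**Figure D4:**
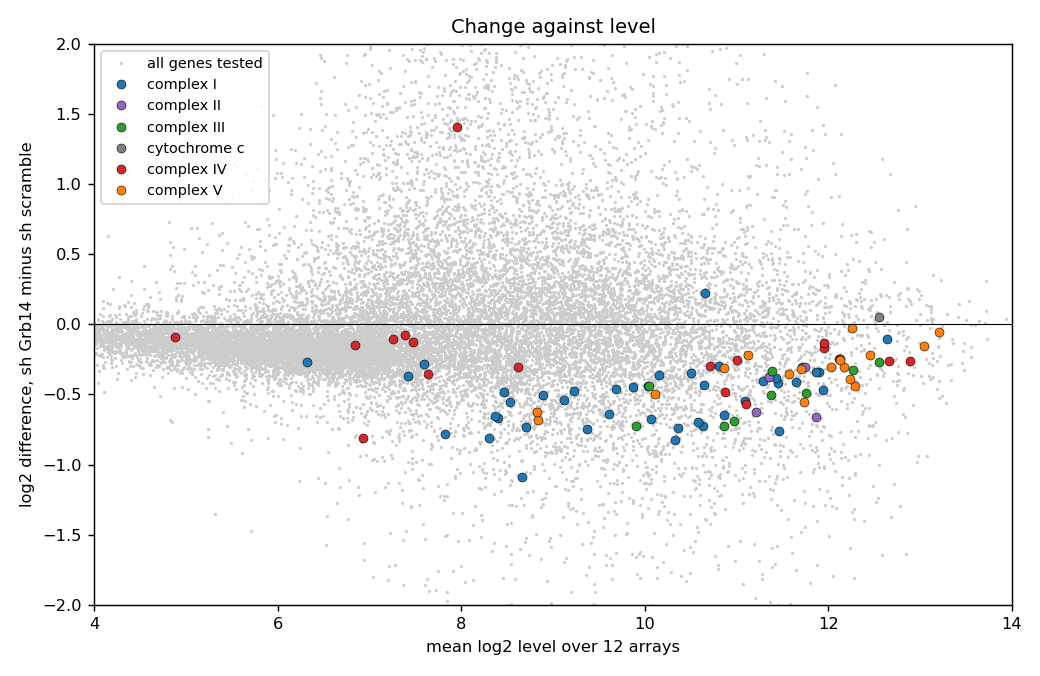
Mean log2 level over 12 livers (x axis) and change of each member (y axis, log2, sh Grb14 minus sh scramble), coloured by complex, over all genes in grey (the axis ends at 2 in either direction). The members between 8 and 10 all lie below 0, with a median of −0.63 against 0.0098 for all genes of that range, and those above 12 have a median of −0.25 against −0.15.

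All 6 sh Grb14 livers showed the fall. Set against the sh scramble mean of each member, the median over members was −0.47 to −0.34 in single sh Grb14 livers, against −0.05 to 0.05 in single sh scramble livers. Liver sh Grb14 4 was the lowest of its group in 35 of the 91 members, and sh Grb14 2 was the highest of its group in 34. Among sh scramble livers, sh scramble 6, one of the 2 that stood apart, was the highest in 40 members, and sh scramble 1 was the lowest in 32. The members' spread within a group was small, with a median SD of 0.084 in sh Grb14 livers, against 0.065 in sh scramble livers. The SD was larger in sh Grb14 livers for 60 members (65.9%), against 53.4% of all genes.

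Neighbouring mitochondrial genes were described from lists of known function. For comparison, 25.8% of all genes rose and 39.5% fell as deposited, and 64.9% fell with arrays centred on the median of all genes. All 14 measured assembly factors of complex I fell (median −0.41), the 7 Ndufaf members among them. Ecsit, a signalling adapter that also serves complex I assembly, fell by 1.20 (SE 0.056; limma adjusted p = 1.1e-11), and Tmem126b and Timmdc1 had changes of −0.70 and −0.64. Of 31 assembly factors of complexes II to V, 4 rose, 25 fell and 2 did not pass (median −0.28), or 2 rose and 26 fell with arrays centred on the median of all genes (median −0.43). Taco1, a translation activator for a subunit of complex IV, fell by 0.86. Sdhaf3, which serves complex II, fell by 0.81, and Bcs1l, which inserts the Rieske protein, fell by 0.77. Cox17, a copper chaperone, rose by 0.36, Cox15, which makes heme a, by 0.34, and Atpaf1, which assembles the ATP synthase head, by 0.17. Cox17 and Cox15 still passed, at 0.21 and 0.19, with arrays centred on the median of all genes, and Atpaf1, at 0.025, did not.

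Enzymes around the chain moved in both directions. Of 17 enzymes of the citric acid cycle and of pyruvate dehydrogenase, 4 rose, 12 fell and 1 did not pass (median −0.37). Sucla2 and Suclg1, of succinyl-CoA ligase, had changes of −0.89 and −0.66, and Dld, the shared dihydrolipoamide dehydrogenase, fell by 0.71. Mdh2, Idh2 and Cs, the malate dehydrogenase, NADP-dependent isocitrate dehydrogenase and citrate synthase of the mitochondrion, rose by 0.39, 0.36 and 0.25. Their rises were 0.25, 0.21 and 0.10 with arrays centred on the median of all genes, each still past the test, and the remaining rise of the list, Idh3g of the NAD-dependent isocitrate dehydrogenase, did not pass (0.086; limma adjusted p = 0.0544). Of 15 genes of coenzyme Q synthesis and other electron entry, 0 rose, 10 fell and 5 did not pass (median −0.31; 14 lower under either centring), led by Coq10a (−0.87), Coq9 (−0.77) and Etfa (−0.70), a flavoprotein that takes electrons from fat oxidation.

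Carriers and pores of the mitochondrial membranes showed no common direction. Of 15, 5 rose, 5 fell (33.3%, against 39.5% of all genes) and 5 did not pass (median −0.04). Under either centring 3 rose and 9 fell, where 64.9% of all genes (centred on all genes) and 53.1% (centred on the brighter genes) fell. Slc25a4, the ADP/ATP carrier best known from muscle, had 10.04, 10.09 and 10.45 in sh Grb14 livers, against 7.82, 7.86 and 9.65 in sh scramble livers. The highest sh scramble level was that of sh scramble 6, and the others lay between 7.82 and 7.97. Slc25a4 rose by 2.02 (SE 0.25; limma adjusted p = 1.89e-06), 4.04-fold higher. Vdac2, a pore of the outer membrane, rose by 0.49 and Slc25a12, an aspartate/glutamate carrier, by 0.28 (0.14 and still past the test with arrays centred on the median of all genes). Its liver counterpart Slc25a13 fell by 1.08. The citrate carrier Slc25a1 fell by 0.50 and the dicarboxylate carrier Slc25a10 fell by 0.39.

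Inhibitors of the chain or the ATP synthase, kinases of pyruvate dehydrogenase and further regulators formed 1 list of 11 measured genes, the member Ndufa4l2 among them. Of these, 2 rose, 5 fell (45.5%) and 4 did not pass (median −0.15), against 25.8% higher and 39.5% lower of all genes. With arrays centred on the median of all genes 2 rose and 7 fell (median −0.29), where 64.9% of all genes fell. As a whole the list thus lay near the background. Atpif1, the inhibitor that stops the ATP synthase from hydrolysing ATP, had 12.60, 12.63 and 12.68 in sh Grb14 livers, against 11.22, 11.25 and 11.45 in sh scramble livers. It rose by 1.36 (SE 0.039; limma adjusted p = 3.99e-14), 2.56-fold higher, in the livers where 15 of 17 genes of complex V fell. Pdk4, a kinase that shuts off pyruvate dehydrogenase, had 10.69, 10.84 and 11.22 in sh Grb14 livers, against 8.50, 9.41 and 9.73 in sh scramble livers, and rose by 1.65 (SE 0.17; limma adjusted p = 2.27e-07). Its relative Pdk1 fell by 1.55 (SE 0.068; limma adjusted p = 5.14e-12), and Pdk2 fell by 0.99 (SE 0.077; limma adjusted p = 6.62e-09). Higd1a, a hypoxia-induced protein that binds the chain, fell by 0.71.

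**Figure D5:**
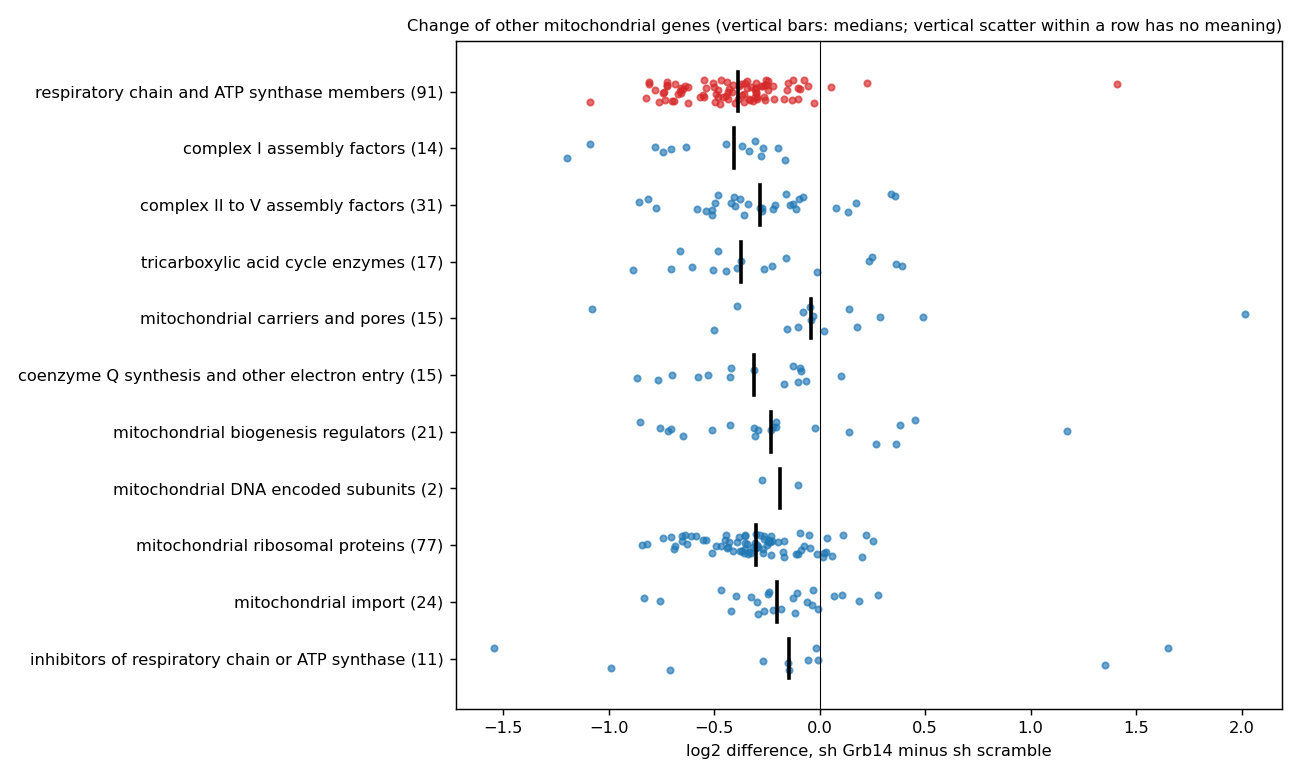
Change (log2, sh Grb14 minus sh scramble) on the x axis, for the 91 members (top row) and the measured genes of each other mitochondrial list (number in brackets), with 1 point per gene and the list's median as a vertical bar. Each row has a median below 0. The carriers and pores (−0.04) and the list labelled inhibitors, which holds further regulators and the member Ndufa4l2 (−0.15), reach furthest to the right.

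Among 21 regulators of mitochondrial biogenesis, 6 rose, 13 fell and 2 did not pass (median −0.23), or 4 rose and 15 fell with arrays centred on the median of all genes (median −0.38). Ppargc1a, the coactivator PGC-1alpha, had 7.85, 8.45 and 8.85 in sh Grb14 livers, against 8.90, 9.37 and 9.40 in sh scramble livers, with separate groups, and fell by 0.85 (SE 0.14; limma adjusted p = 5.18e-05). Twnk, the helicase of mitochondrial DNA, and Tfb2m, a transcription factor of it, fell, with changes of −0.76 and −0.72, and Esrra and Gabpa fell, with changes of −0.21 (−0.36 with arrays centred on the median of all genes) and −0.31. Nrf1 lay at 7.98 to 8.25 in sh Grb14 livers, against 7.79 to 8.02 in sh scramble livers and rose by 0.27 (SE 0.059; limma adjusted p = 0.000854), or by 0.12 and not past the test with arrays centred on the median of all genes (limma adjusted p = 0.0551). Gabpb1, the partner of Gabpa, rose by 0.38 (0.24 with that centring), Pprc1, a relative of PGC-1alpha, by 0.45, and Myc, a broad activator of growth genes, by 1.17 (SE 0.30; limma adjusted p = 0.00275). The groups overlapped in Pprc1 and Myc. Tfam, the packaging factor of mitochondrial DNA, had a change of −0.21 (SE 0.11; limma adjusted p = 0.105) that did not pass, and Yy1 one of −0.02 (SE 0.044; limma adjusted p = 0.644). Both passed as falls with arrays centred on the median of all genes (Tfam −0.36, Yy1 −0.17; limma adjusted p = 0.0086 and 0.00208) or of the brighter genes (Tfam −0.29, Yy1 −0.11; limma adjusted p = 0.0123 and 0.0198), and Yy1 stood at 0.02 without arrays sh scramble 4 and 6 (limma adjusted p = 0.651).

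Most genes of the mitochondrial ribosome and of protein import fell as well. Of 77 mitochondrial ribosomal protein genes 3 rose, 59 fell and 15 did not pass (median −0.30). Mrps35, Mrpl34 and Mrps27 had changes of −0.84, −0.82 and −0.74. Mrpl54, Mrpl3 and Mrpl40 rose by 0.25, 0.20 and 0.11, and none of these 3 passed with arrays centred on the median of all genes. Mrpl40 did not pass without sh scramble 4 (limma adjusted p = 0.059), without sh scramble 6 (limma adjusted p = 0.0531) or without both (0.09; limma adjusted p = 0.117) either. Of 24 import genes 2 rose, 14 fell and 8 did not pass (median −0.20), from Timm9 (−0.83), Timm21 (−0.76) and Timm17b (−0.47) to Timm17a (0.28) and Tomm34 (0.19). With arrays centred on the median of all genes, 1 import gene rose and 20 fell (median −0.35): Timm17a passed at 0.13, and Tomm34 did not, at 0.039 (limma adjusted p = 0.474) or at 0.10 when centred on the brighter genes (limma adjusted p = 0.0511). Of the subunits encoded in mitochondrial DNA 2 were measured: ND3 of complex I had 12.60, 12.74 and 12.83 in sh Grb14 livers, against 12.92, 12.99 and 13.13 in sh scramble livers, and fell by 0.27 (SE 0.046; limma adjusted p = 6.41e-05), while COX2 of complex IV overlapped and had a change of −0.10 (SE 0.039; limma adjusted p = 0.032), or −0.088 without sh scramble 6 (limma adjusted p = 0.0717) and −0.085 without arrays sh scramble 4 and 6 (limma adjusted p = 0.115). Both had larger falls, −0.42 for ND3 and −0.25 for COX2, with arrays centred on the median of all genes.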

How the data were processed

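The data are 12 Affymetrix whole-transcript arrays, 1 per liver. Per the labels' protocols, Trizol was used to extract total RNA, and biotin labelling started from 100 ng. The deposited values are on a log2 scale. RMA, which corrects background, normalises and summarises probes, and the software Partek appear in the submitters' processing notes without a version or role. Of 35556 probe sets, 21789 had 1 symbol in the platform annotation. Where a gene had several, the one with the highest 12-array mean stood for it, and probe sets with several symbols were left out.

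All 19938 genes were fitted with limma 3.58.1 in R 4.3.3 (lmFit, eBayes with intensity trend, both groups, no covariate, no intensity filter), checked on simulated data, with p adjusted over all genes. The simulation changed only a small part of the genes and held no shift in scaling, so it does not check calls against a background as wide as this. Single values were also compared by a two-sided exact permutation test over the 924 assignments of mice, which gave 0.00216, the smallest possible, for each member with separate groups. Replicates are separate mice. Members were named by rule: in complexes I, III, IV and V the 3 largest rises and 3 largest falls past the test, all of complex II, Cyc1, Cycs and the isoform groups, and up to 3 rises and 3 falls of each other list. The further members and the regulators named were added to complete a complex or a motif. The members and lists were chosen with earlier results of these data known. The 18 alternatives were 12 that left out 1 mouse each, 5 other settings, and 1 that left out 2 arrays and was chosen after seeing the data. The sources used here give no scan dates or batches, and a batch that followed the groups cannot be told apart from them. The number of arrays limits the precision.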

Additional observations from a re-analysis of the deposited data

Results flagged for a closer look

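Single livers far from the other 5 of their group were looked for in the 91 members and in Grb14, in both groups (184 sets of 6 values), by Dixon's gap to the nearest liver relative to the range of the group. Chance alone marks about 1 in 20 such sets, and here 4 were marked. Cox7a2 was low in sh Grb14 4, at 10.40, against 10.61 in the nearest liver, and sh Grb14 4 was also the lowest of its group in 35 members. Cox8a was low in sh Grb14 1, at 11.77, against 11.98 in the nearest. Uqcrc2 was high in sh Grb14 6, at 12.23, against 12.09 in the nearest. Cox7a1, the isoform of heart and skeletal muscle, was high in sh scramble 6, at 8.66, against 7.80 in the nearest, and muscle markers were high in that array as well. In Cox7a2, Cox8a and Uqcrc2 the groups remained separate.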

How the results depend on the processing

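With 18 alternatives, the direction of the members' median never changed. It was −0.54 with arrays centred on the median of all genes and −0.47 with arrays centred on the genes above the median level, against −0.39 as deposited, and it lay between −0.41 and −0.37 when 1 mouse was left out. Members that fell numbered 77 to 89 over all alternatives, the lowest of 81 members left when dim genes were dropped, and 79 to 82 when 1 mouse was left out. The number that rose was 1 with arrays centred on the median of all genes and 2 in each other alternative. Genes that passed numbered 13012 as deposited, 11877 to 13497 when 1 mouse was left out and 7869 when only the 9969 genes above the median level were tested. Grb14 changed by −2.05 to −1.86. The sign of Cycs turned, to −0.093 and −0.032 with the centrings and −0.051 with the mean of its probe sets, and that of Atp5g2 turned to 0.00051 without arrays sh scramble 4 and 6. Cox7a1 did not pass in 9 alternatives, namely without any single sh Grb14 mouse or without sh scramble 2 or 4 (changes of −0.38 to −0.33), and without sh scramble 4 and 6 together (−0.15). Cox8b did not pass without sh scramble 4, sh Grb14 1 or sh Grb14 2 (−0.67, −0.77 and −0.79). The cause was not tested. No paired analysis was possible because the labels give each mouse a number of its own. Changes near the bottom of the scale, without a detection call, and near the top, where signals can be compressed, may be understated.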
